A study of Mus musculus with 18 samples.

Results

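The mitochondrial ribosomal protein genes were taken as all rows of the deposited TPM table whose gene symbol begins with Mrpl or Mrps followed by a digit. This rule found 77 of 24369 genes, 48 of the Mrpl class (named for the large subunit) and 29 of the Mrps class (named for the small subunit), and it used no measured value. The libraries are bulk RNA-seq of mouse embryonic stem cells (mESCs) of the E14 line that carry Cas9 and a destabilized GFP reporter of *Rex1*, genotype Rex1GFPd2-Cas9. A time course of these otherwise unmodified cells was sampled before differentiation (day 0) and on days 1, 2 and 3, with 3 libraries per day. Separately, GFP+ cells were sorted from wild-type cells, from *Nprl2* KO cells (Rex1GFPd2-Cas9 Nprl2-/-) and from *Tsc2* KO cells (Rex1GFPd2-Cas9 Tsc2-/-), with 2 libraries per genotype. Differentiation was started by leaving out LIF and the pair of kinase inhibitors that hold mESCs in the naive state. Undifferentiated cells of the study were kept on feeder cells with serum and LIF or, where indicated, on gelatin with LIF and the inhibitors. The paper does not state which of these the day 0 cells of the time course had. Both KOs were made by deleting an exon on both alleles and expanding picked clones. The labels do not say whether the libraries of a genotype or day come from separate clones or cultures, so the p-values measure only the spread between these libraries, which may be technical.

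Mitochondrial ribosomes translate the few mRNAs of mitochondrial DNA, which encode core subunits of the respiratory chain and of ATP synthase. Their rRNAs are made in the mitochondrion, whereas all of their proteins are encoded by nuclear genes, made in the cytosol and imported. Several of these proteins are found only in mitochondria, and others are relatives of bacterial ribosomal proteins. *Nprl2* encodes a subunit of Gator1, which restrains mTORC1 when amino acids are scarce, and *Tsc2* encodes tuberin, which restrains mTORC1 through Rheb. mTORC1 is a kinase complex that promotes ribosome production, translation and mitochondrial activity, so its regulators give a setting in which to describe this gene family.

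Libraries held from 8610357 to 15305054 estimated counts. *Nprl2* had 16.09 and 16.99 TPM in the wild-type GFP+ libraries, and the libraries of its KO had 8.09 and 8.65. The log2 fold change, given here and throughout ± SE, was -0.96 ± 0.18 (edgeR quasi-likelihood test, Benjamini-Hochberg adjusted p = 0.00888), and *Tsc2* had 44.98 and 44.94 TPM in wild-type and 18.8 and 20.3 in *Tsc2* KO (-1.23 ± 0.076; edgeR, adjusted p = 9.74e-07). The summed TPM of 6 pluripotency markers fell from between 4354 and 4524 on day 0 to between 1273 and 1555 on day 3, and that of 4 formative markers rose from between 103 and 129 to between 1209 and 1496. In GFP+ cells the formative sum was lowest in *Tsc2* KO, at 115 and 109.6, against 462 and 386 in wild-type and 624 and 532 in *Nprl2* KO. The summed TPM of 7 feeder fibroblast markers was between 8.58 and 41.4 in the time course and between 108 and 153 in GFP+ libraries other than *Tsc2* KO library 2, where it was 37.4. These markers did not move together in the time course. *Thy1* made up most of the sum on day 3, at 26.8 to 33.3 TPM, while *Col1a1* fell from between 2.98 and 6.59 on day 0 to between 1.03 and 1.25. *Col1a1* had 70.7 and 52.0 TPM in wild-type GFP+ cells and 15.0 in *Tsc2* KO library 2. Primitive endoderm markers summed to at most 10.2 TPM. In bulk RNA, fewer cells of a type and less RNA per cell cannot be told apart.

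All 77 genes were detected in all 18 libraries, and all 77 passed the filter on low counts. TPM, a level per transcript length and per library total, allows levels to be compared between genes. The mean TPM over the 18 libraries ranged from 12.2 for *Mrpl41* to 293 for *Mrpl42*, a span of 24.0-fold, with a median over the genes of 88.8. *Mrpl42* (chr10:95480805-95501949, mm10), *Mrpl12* (mean 255 TPM), which forms the L7/L12 stalk where translation factors dock, and *Mrpl20* (mean 238 TPM), a relative of bacterial L20, had the highest levels. *Mrpl41*, *Mrps25* (mean 16.3 TPM) and *Mrpl57* (mean 19.1 TPM) had the lowest. The median was 89.2 TPM in the Mrpl class and 87.3 TPM in the Mrps class. Within a gene the levels spread less: the ratio of its highest to its lowest library ranged from 1.22 to 2.90 over the genes, with a median of 1.53. The widest were *Mrpl23*, *Mrpl14* (ratio 2.84) and *Mrps24* (ratio 2.44). Across the 77 genes, which are not independent replicates, the rank correlation of mean TPM was 0.901 between day 0 and day 3, 0.971 between wild-type and *Nprl2* KO, and 0.961 between wild-type and *Tsc2* KO.

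The 77 genes together held less than 1% of the TPM total. Their share was 0.750%, 0.754% and 0.745% in the libraries of day 0, 0.792%, 0.789% and 0.776% on day 1, 0.747%, 0.736% and 0.720% on day 2, and 0.705%, 0.724% and 0.722% on day 3. The 3 libraries of day 1 were thus the highest of the time course, and all 3 of day 3 lay below all 3 of day 0. The rise on day 1 lay in the Mrpl class, which held 0.470% to 0.479% on day 0 and 0.504% to 0.514% on day 1, whereas the Mrps class held 0.275% to 0.277% on day 0 and 0.271% to 0.278% on day 1. The ratio of Mrpl to Mrps TPM was accordingly 1.70 to 1.74 on day 0 and 1.85 to 1.86 on day 1, and it was 1.80 to 1.84 on day 3. In GFP+ cells the share of the 77 genes was 0.787% and 0.745% in wild-type, 0.847% and 0.796% with *Nprl2* KO, and 0.810% and 0.786% with *Tsc2* KO. Both *Nprl2* KO libraries exceeded both wild-type libraries, while the lower *Tsc2* KO library lay within the wild-type range. Transcript length minus effective length, which follows from fragment length and enters TPM, was 227.9 bases in *Nprl2* KO library 1, the one with 0.847%. It was between 169.6 and 183.9 in the other GFP+ libraries, and its part in the shares was not tested. The Mrpl to Mrps ratio was 1.74 to 1.76 in wild-type, 1.73 in both *Nprl2* KO libraries and 1.68 to 1.69 in *Tsc2* KO, with no overlap between genotypes. The shares are parts of a fixed total, so a lower share of other genes raises them. The mean share of cytosolic ribosomal proteins was 23.1% on day 0, 20.8% on day 1, 23.4% on day 2 and 22.6% on day 3. In GFP+ cells it was 22.43% and 23.41% in wild-type, 22.87% and 23.13% with *Nprl2* KO, and 20.99% and 20.56% with *Tsc2* KO. Its part in the shares of the 77 genes was not tested. These sums over genes are a description and were not tested.

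**Figure D1:**
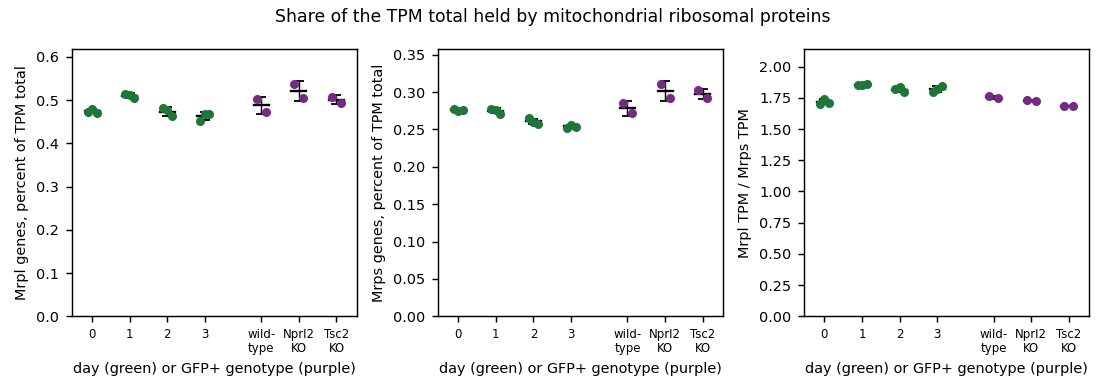
The share of each library's TPM total held by 48 Mrpl genes (left) and 29 Mrps genes (middle), in percent, and the ratio of the former to the latter (right), by day of differentiation (green) and by genotype of GFP+ cells (purple); points are libraries, horizontal lines and bars are the mean ± SD. The Mrpl share was highest on day 1, at 0.504% to 0.514%, while the Mrps share did not rise from day 0 to day 1.

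On day 1, more of the 77 genes were higher than lower. Relative to day 0, 28 of the 77 genes (36.4%) were higher and 9 (11.7%) lower in the edgeR test, where 30.1% of all 14382 genes tested were higher and 30.8% lower. The share of higher calls was thus near that of all genes, and the share of lower calls below it. The median log2 fold change was 0.12 over the 77 genes, 0.17 over the Mrpl class and 0.0024 over the Mrps class, beside 0.00065 over all genes. By class, 22 of 48 Mrpl genes rose and 5 fell, and 6 of 29 Mrps genes rose and 4 fell. On the scale of log2(TPM + 1), where a pseudocount of 1 damps low genes, limma called 23 higher and 13 lower around a median of 0.048. The median of all genes on that scale was -0.054. Shares of all genes called were counted for the main edgeR fit only, here and below, so the counts of other fits have none beside them.

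The largest rise was that of *Mrps34* (chr17:24895120-24896289), a small subunit protein specific to mitochondria. Its TPM was 74.7, 74.2 and 80.4 on day 0 and 132, 135 and 123 on day 1. All day 1 libraries lay far above those of day 0, a log2 fold change of 0.84 ± 0.076 or 1.79-fold (edgeR, adjusted p = 1.89e-08). *Mrpl20* went from 159, 157 and 179 to 279.8, 283 and 262 TPM. Its groups did not overlap either, and the log2 fold change was 0.81 ± 0.078 (edgeR, adjusted p = 3.91e-08). *Mrpl34*, a relative of bacterial L34, went from 106, 92.3 and 98.3 to 168, 148 and 146 TPM, a log2 fold change of 0.72 ± 0.10 (edgeR, adjusted p = 9.2e-06). *Mrpl17* and *Mrpl33*, also relatives of bacterial large subunit proteins, rose by 0.63 and 0.61, and *Mrpl14*, which lies at the interface of the subunits, by 0.60 (edgeR, adjusted p = 5.72e-07, 2.47e-05 and 2.86e-05). In each of these genes every day 1 library exceeded every day 0 library.

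The falls on day 1 were smaller. *Mrpl47*, which lies near the exit of the peptide tunnel, had 119.8, 150.2 and 119 TPM on day 0 and 97.4, 99.1 and 88.2 on day 1. Its highest value on day 1 was below its lowest on day 0, a log2 fold change of -0.38 ± 0.097 (edgeR, adjusted p = 0.00215). *Mrpl35*, *Mrps9*, *Mrpl39* and *Mrps5* had log2 fold changes of -0.32, -0.30, -0.28 and -0.27 (edgeR, adjusted p = 0.000449, 0.000903, 0.00061 and 0.000419). *Mrps5*, which lines the entry of the mRNA channel, went from 193, 191 and 188 to 147, 148 and 157 TPM.

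Between day 1 and day 2 the family fell broadly. Of the 77 genes, 43 (55.8%) were lower and 3 (3.90%) higher, where 29.6% of all genes tested were lower and 32.5% higher. The median log2 fold change was -0.22, beside 0.022 over all genes, and both classes fell, with 29 of 48 Mrpl genes (median -0.24) and 14 of 29 Mrps genes (median -0.19) lower. The split between directions depended on the scale: limma on log2(TPM + 1) called 28 genes lower and 9 higher with a median of -0.11, and on that scale the median of all genes was 0.11. The difference between the 2 medians was -0.24 in edgeR and -0.22 on the TPM scale. The median of all genes was also 0.10 with upper-quartile normalization, which called 29 lower and 4 higher.

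The steepest fall was that of *Mrpl14* (chr17:45685722-45698495). It had 94.0, 84.9 and 86.8 TPM on day 1 and 38.9, 33.1 and 39.2 on day 2, after 60.0, 61.2 and 63.3 on day 0. The day 2 libraries were thus below those of both earlier days, and the log2 fold change from day 1 was -1.37 ± 0.10, or 0.386 times the level of day 1 (edgeR, adjusted p = 1.69e-09). *Mrps12*, the decoding centre protein, had 152, 132 and 139 TPM on day 0, 195, 183 and 184 on day 1 and 111, 97.6 and 106 on day 2. It too rose and then fell below its starting level, with log2 fold changes of 0.48 ± 0.077 and -0.95 ± 0.079 (edgeR, adjusted p = 2.22e-05 and 6.4e-09). *Mrpl17* had 19.8, 17.9 and 20.3 TPM on day 0, 28.4, 29.2 and 27.8 on day 1 and 18.3, 17.8 and 15.3 on day 2, and fell by 0.85 on the log2 scale (edgeR, adjusted p = 1.53e-08). *Mrps7*, a protein of the small subunit head, rose by 0.46 and fell by 0.60 in the same steps (edgeR, adjusted p = 4.49e-06 and 2.12e-07). The days compared share the day 1 libraries, so the size of a rise and of the fall after it are not independent.

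*Mrpl19*, which takes part in a bridge between the subunits, took another course. Its TPM was 26.3, 27.8 and 23.9 on day 0, 25.8, 24.7 and 24.8 on day 1, 17.3, 17.2 and 14.9 on day 2 and 15.9, 16.5 and 15.8 on day 3. The first 2 days overlapped and the last 2 lay below them, a log2 fold change of -0.72 ± 0.077 from day 1 to day 2 (edgeR, adjusted p = 1.78e-07). *Mrpl13* was the one gene named by rule that rose in this step, by 0.18 (edgeR, adjusted p = 0.0255); *Mrps33* and *Mrps21*, chosen after their values were seen, were called higher at 0.24 and 0.23 with libraries that overlapped between days in counts per library size but not in TPM. DESeq2 called none of the 77 genes higher, edgeR called 4 at an unadjusted p under 0.05, and *Mrpl13* also lost its call without day 1 library 2 or 3 or day 2 library 1 (adjusted p up to 0.144).

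**Figure D2:**
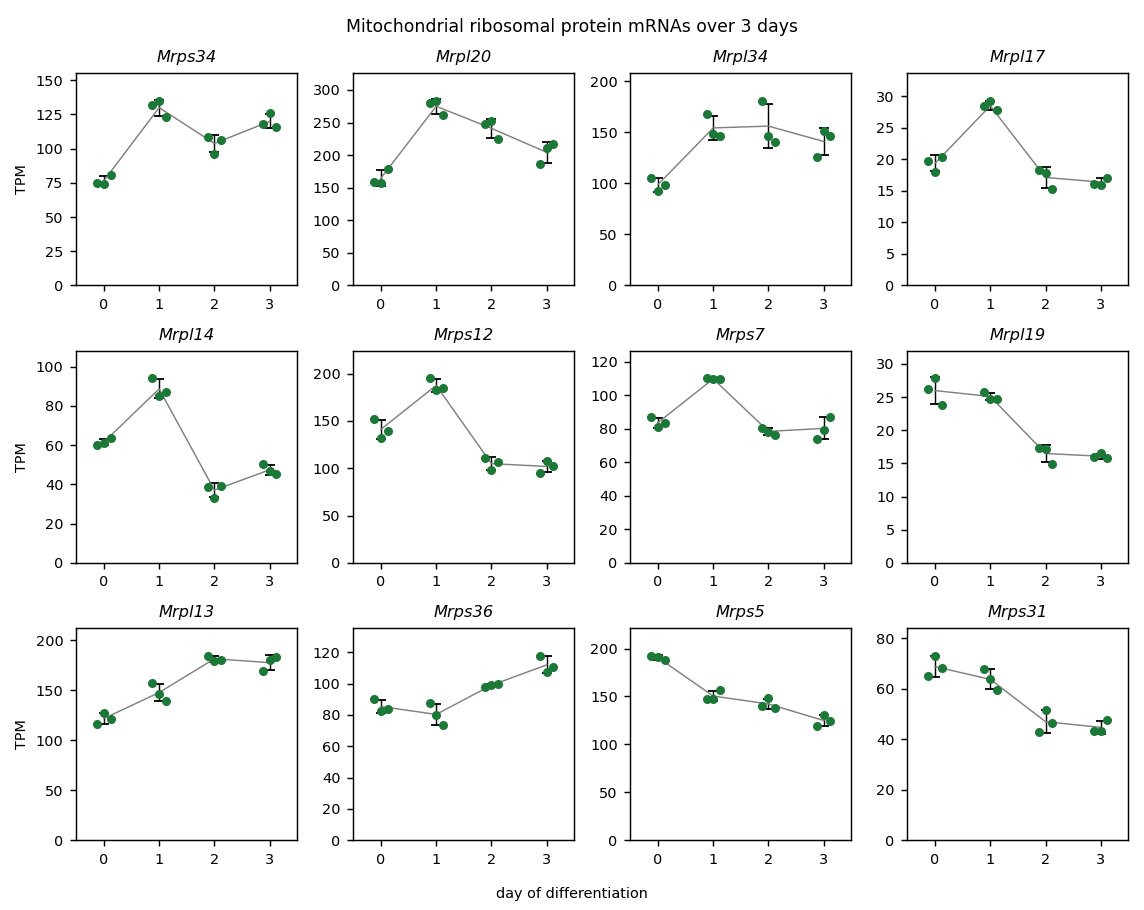
TPM (vertical axis, from 0) of 12 mitochondrial ribosomal protein genes on days 0 to 3 of differentiation (horizontal axis); green points are the 3 libraries of a day, and the line and bars are the mean ± SD. *Mrps34* and *Mrpl20* rose on day 1 and stayed above day 0, *Mrpl14*, *Mrpl17*, *Mrps12* and *Mrps7* peaked on day 1, and *Mrps5*, *Mrps31* and *Mrpl19* ended below day 0.

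Between day 2 and day 3 fewer genes moved. Of the 77 genes, 13 (16.9%) were lower and 2 (2.60%) higher, where 15.6% of all genes were lower and 15.9% higher, with a median log2 fold change of -0.08 beside -0.0084 over all genes. *Mrps24*, a small subunit protein, had 79.6, 72.7 and 75.4 TPM on day 2 and 54.0, 63.0 and 56.6 on day 3. These did not overlap, and the log2 fold change was -0.43 ± 0.08 (edgeR, adjusted p = 0.000538). *Mrpl49*, *Mrpl20*, *Mrps2* and *Mrpl15* were next among the falls, between -0.30 and -0.26. *Mrpl23*, which lies at the exit of the peptide tunnel, rose by 0.35 and *Mrpl14* by 0.31 (edgeR, adjusted p = 0.0171 and 0.0344). The count for this step rested on single libraries: 15 genes were called in all, and 5 without day 3 library 1, 6 without day 2 library 2, 9 without day 2 library 1 and 23 without day 2 library 3. Without day 3 library 1, the calls of *Mrpl14*, *Mrpl20*, *Mrpl23*, *Mrpl49* and *Mrps2* were lost (edgeR, adjusted p between 0.0534 and 0.119), and limma on log2(TPM + 1) called 8 higher and 9 lower.

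Over the whole course, from day 0 to day 3, 42 of the 77 genes (54.5%) ended lower and 16 (20.8%) higher, where 35.9% of all genes were lower and 35% higher. The median log2 fold change was -0.19 over the 77 genes, -0.18 over the Mrpl class and -0.185 over the Mrps class, beside -0.013 over all genes. *Mrpl19* fell furthest, by 0.78 on the log2 scale, followed by *Mrps31*, *Mrps2*, *Mrps5* and *Mrpl35*, at between -0.71 and -0.68 (edgeR, adjusted p between 2.37e-09 and 2.34e-07 for these 5). *Mrpl35* had 31.5, 32.1 and 28.1 TPM on day 0 and 19.6, 20.6 and 20.7 on day 3. *Mrps5* had 119.6, 131 and 124 on day 3, below every library of day 0. The genes that ended highest over day 0 were *Mrps34* (0.56 ± 0.077; 118, 126 and 116 TPM on day 3), *Mrpl13* (0.46 ± 0.069), *Mrpl34* (0.43 ± 0.11) and the stalk protein *Mrpl53* (0.36 ± 0.083), each with all day 3 libraries above all day 0 libraries (edgeR, adjusted p = 2.29e-06, 7.8e-06, 0.00134 and 0.000735). *Mrpl13* went from 117, 128 and 121 to 169, 180.5 and 183 TPM. On the log2(TPM + 1) scale limma called 22 higher and 33 lower. The median of all genes on that scale was 0.063, and the share of all genes called was not counted.

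**Figure D3:**
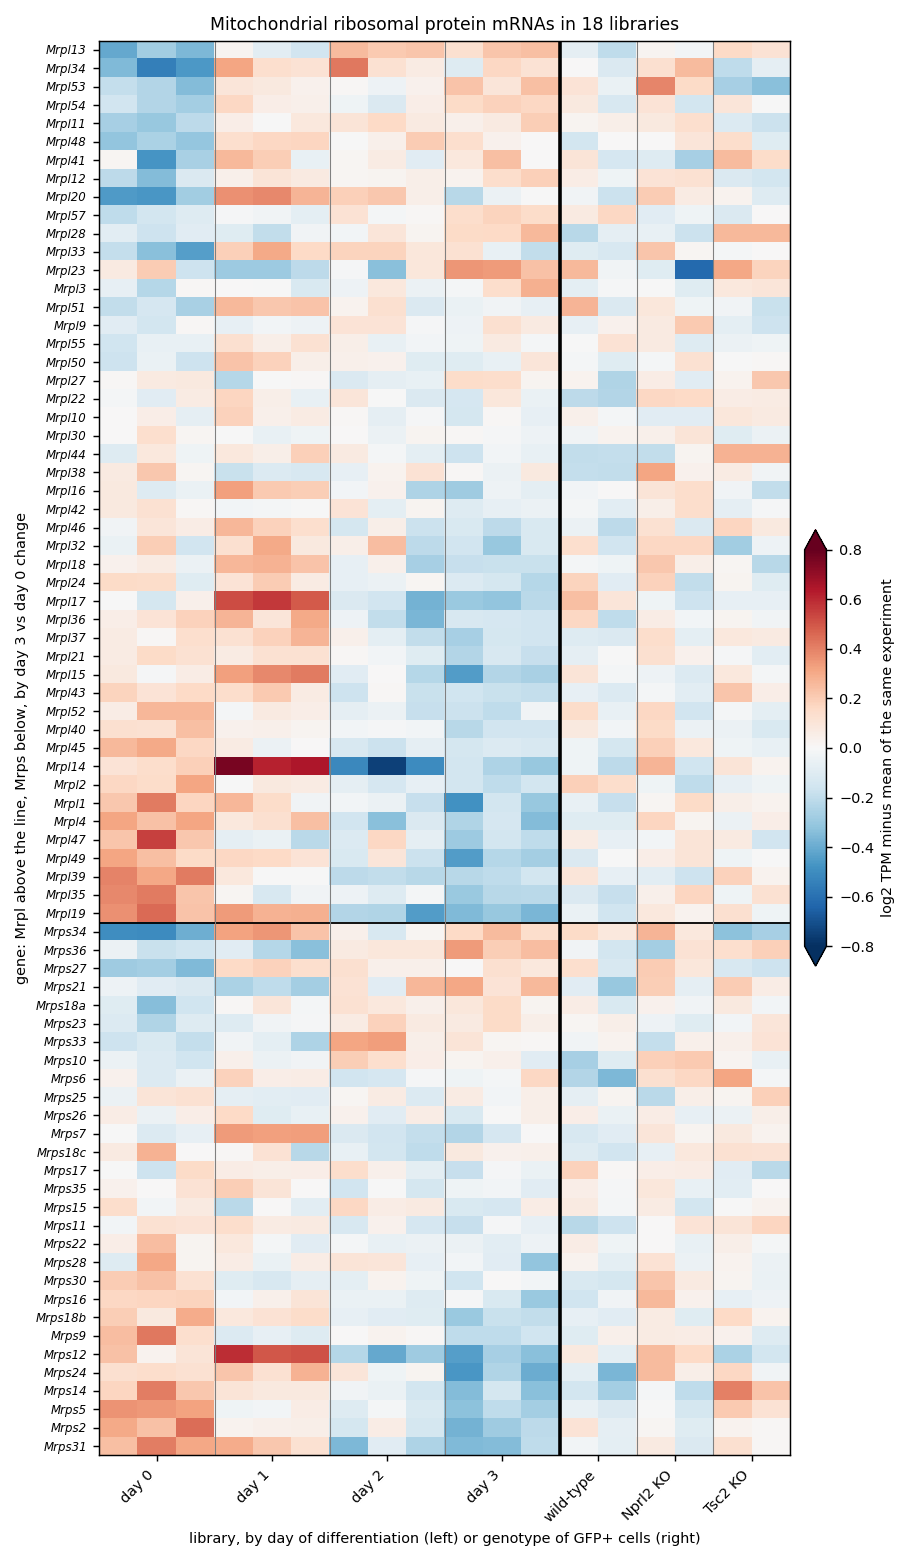
Log2 TPM of the 77 genes (vertical, Mrpl above the black line and Mrps below, ordered by their day 3 against day 0 change) in the 18 libraries (horizontal, by day at left and by genotype of GFP+ cells at right), each as the difference from the gene's mean over the 12 time-course or the 6 GFP+ libraries; red is higher and blue lower. The time course shows a block of genes that was low on day 0 at the top of each class and a block that was high on day 0 at the bottom, and *Mrpl14*, *Mrpl17* and *Mrps12* stand out on day 1.

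The genes were also described by place in the particle. Those of the L7/L12 stalk, *Mrpl10*, *Mrpl11*, *Mrpl12*, *Mrpl53* and *Mrpl54*, were all called higher on day 1 than on day 0, at between 0.17 and 0.40, where 36.4% of the 77 genes and 30.1% of all genes were. From day 0 to day 3, where 20.8% of the 77 genes and 35% of all genes were higher, 4 of them were higher and *Mrpl10* lower (-0.15 ± 0.065; its day 0 and day 3 libraries overlapped). *Mrpl12* had 224, 203 and 239 TPM on day 0, 267, 278 and 272 on day 1 and 264, 285 and 295 on day 3. Its libraries of day 1 and day 3 all lay above those of day 0, with log2 fold changes of 0.37 ± 0.063 and 0.26 ± 0.063 (edgeR, adjusted p = 5.7e-05 and 0.00135). In the central protuberance, which bridges the subunits and holds a tRNA in mammals, 5 of 7 genes ended lower on day 3 than on day 0, where 54.5% of the 77 genes and 35.9% of all genes were lower, and 1 ended higher, the latter being *Mrpl48* (0.27 ± 0.084; edgeR, adjusted p = 0.0072). Of 5 genes around the peptide exit, *Mrpl24* (-0.31) and *Mrpl45* (-0.45), which tethers the ribosome to the inner membrane, were lower over this span and 3 were not called. *Mrpl47*, near the same exit but not among these 5, was lower too (-0.64 ± 0.098; edgeR, adjusted p = 9.83e-06). *Mrpl1* of the L1 stalk, which handles outgoing tRNA, fell by 0.56, from 30.4, 34.9 and 29.5 to 18.7, 23.6 and 21.2 TPM (edgeR, adjusted p = 2.04e-05). Roles were assigned from general knowledge, and the groups are too small to set against each other.

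The symbol does not always tell where the protein sits. *Mrps18a* and *Mrps30* are proteins of the large subunit, and *Mrps36* belongs to the 2-oxoglutarate dehydrogenase complex of the citric acid cycle. *Mrps18a* rose from 79.4, 67.1 and 76.1 TPM on day 0 to 90.2, 94.3 and 86.3 on day 3 (0.20 ± 0.084). Its paralog *Mrps18b*, a small subunit protein, fell from 215, 199 and 231 to 153, 167 and 165 (-0.50 ± 0.063). The third paralog, *Mrps18c*, had 159, 183 and 151 TPM on day 0 and 159.6, 154 and 155 on day 3, which overlapped (-0.16 ± 0.097). The adjusted p of edgeR was 0.0379, 8.4e-07 and 0.152 for these 3, so 1 paralog rose, 1 fell and 1 was not called. *Mrps30* was lower on day 3 (-0.34 ± 0.062; edgeR, adjusted p = 8.61e-05). *Mrps36* was higher (0.31 ± 0.084; edgeR, adjusted p = 0.00305), with 90.2, 82.4 and 83.5 TPM on day 0 and 118, 107 and 111 on day 3, but the call was lost when only its most abundant transcript was counted (adjusted p = 0.0556). Of the 77 genes, 9 had more than 1 transcript in the files.

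Related gene lists were counted in the same fits. Between day 0 and day 3, the nuclear genes of oxidative phosphorylation had 3 of 80 higher and 57 lower (median -0.27), where the median is that of the log2 fold change over the list, and the cytosolic ribosomal proteins had 5 of 85 higher and 35 lower (median -0.096). Over the same span, proteins of the mitoribosome under other symbols had 1 of 6 higher and 3 lower (median -0.15), mitochondrial translation factors 1 of 10 higher and 5 lower (median -0.17), and factors of mitoribosome assembly 1 of 18 higher and 8 lower (median -0.16). On day 1 against day 0 the counts were 2 of 80 higher and 38 lower (median -0.13) in oxidative phosphorylation, 10 of 85 higher and 23 lower (median -0.063) in the cytosolic ribosome, 4 of 10 higher and 2 lower (median 0.12) in translation factors and 6 of 18 higher and 3 lower (median 0.021) in assembly. On day 2 against day 1 they were 7 of 80 higher and 30 lower (median -0.10), 18 of 85 higher and 5 lower (median 0.055), 2 of 10 higher and 3 lower (median -0.10) and 2 of 18 higher and 6 lower (median -0.15) in the same order. Of all genes tested, 35% were higher and 35.9% lower on day 3 against day 0. The shares of all genes were 30.1% higher and 30.8% lower on day 1 against day 0, and 32.5% and 29.6% on day 2 against day 1. No test between lists was made. Among the assembly factors *Mterf4*, which works with the rRNA methyltransferase *Nsun4*, rose by 0.95 on day 1 and *Nsun4* fell by 0.85 (edgeR, adjusted p = 1.03e-08 and 1.18e-06). *Rbfa*, a maturation factor of the small subunit, was -1.09 ± 0.08 on day 3 against day 0 (edgeR, adjusted p = 4.12e-10). *Gadd45gip1*, a large subunit protein, fell by 0.71, and *Chchd1*, a small subunit protein, rose by 0.48 over the same span (edgeR, adjusted p = 3.47e-08 and 0.000264). *Polrmt*, the RNA polymerase of mitochondria, fell by 0.81 (edgeR, adjusted p = 1.48e-08). *Myc*, a transcription factor that acts on many ribosome biogenesis genes, was 1.87 ± 0.31 on day 1 against day 0 and -1.32 ± 0.30 on day 2 against day 1 (edgeR, adjusted p = 0.00061 and 0.00391); of the 14 transcription regulators tested, 6 rose and 5 fell on day 1, and 1 rose and 7 fell on day 2.

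**Figure D4:**
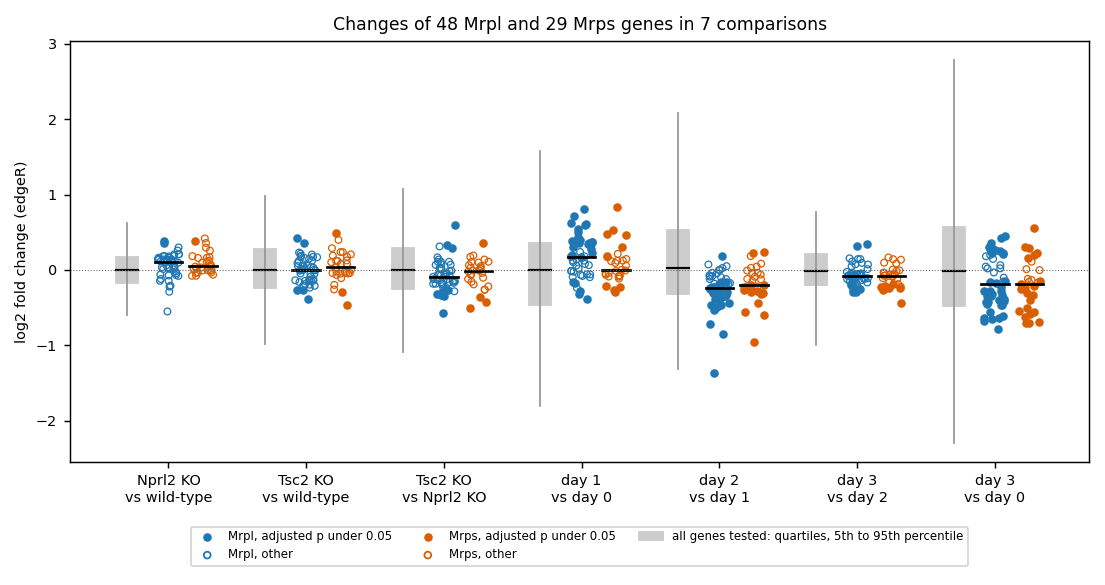
Log2 fold changes (vertical axis, edgeR) of 48 Mrpl genes (blue) and 29 Mrps genes (orange) in the 7 comparisons (horizontal axis); filled points have an adjusted p under 0.05, black lines are medians, and grey boxes and lines give the quartiles and the 5th to 95th percentiles of all genes tested. The family lies within the range of all genes throughout; its medians are 0.12 on day 1 against day 0 and -0.22 on day 2 against day 1.

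Promoter sequences of RefSeq (GRCm38.p6, the same build as mm10) were held for 68 of the 77 genes, 74 promoters in all. Each ran from 250 bases before to 50 after an annotated start, which need not be the outermost end of the gene. A gene with several promoters was counted as holding a motif if any of them did. They were searched on both strands for motifs of factors known to act on nuclear genes of mitochondrial proteins: CGCANGCG, the core of the NRF1 site, CCGGAAG of ETS factors such as GABPA, AAGATGGC of YY1, and CACGTG, the E-box bound by MYC. NRF1 motifs lay in 20 of the 68 genes (29.4%), against 9.22% of all 27025 genes with a promoter, ETS motifs in 25 (36.8%, against 9.93%), YY1 motifs in 12 (17.6%, against 3.19%) and E-boxes in 5 (7.35%, against 8.09%). At least 1 of the motifs was present in 45 genes, and no match overlapped a match of another motif. Among the genes with a promoter that were higher on day 1, 11 of 24 held an ETS motif, 7 an NRF1 motif, 5 a YY1 motif and 2 an E-box, and among the other 44 the numbers were 14, 13, 7 and 3. A longer form of the NRF1 motif was tried first and gave lower shares, both for the family and for all genes. The 27025 genes include many that did not pass the filter on low counts here, whereas all 77 did. These matches are a description, binding was not measured, and the shares were not tested. The stretches from 120 bases before the start to 30 after it are shown for 6 of the genes with the largest changes on day 1 or day 2, to let the motifs be seen in place, 5′ to 3′ on the strand of the gene, with motif letters in capitals. *Mrpl14* (chr17:45686229-45686378, plus strand) and *Mrpl17* (chr7:105811058-105811207, minus strand) hold NRF1 motifs, *Mrps12* (chr7:28741792-28741941, minus strand) and *Mrpl34* (chr8:71464806-71464955, plus strand) an ETS motif, *Mrps7* (chr11:115604020-115604169, plus strand) an NRF1 and a YY1 motif, and *Mrpl20* (chr4:155802758-155802907, plus strand) an E-box. A YY1 match of *Mrps12* and an ETS match of *Mrpl17* lie further upstream.
Mrpl14: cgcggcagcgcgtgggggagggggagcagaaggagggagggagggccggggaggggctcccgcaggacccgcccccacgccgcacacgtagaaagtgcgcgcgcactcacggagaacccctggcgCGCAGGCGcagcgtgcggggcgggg
Mrpl17: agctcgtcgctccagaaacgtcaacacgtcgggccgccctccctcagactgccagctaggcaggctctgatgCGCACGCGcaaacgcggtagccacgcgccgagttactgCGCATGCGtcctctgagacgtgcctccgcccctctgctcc
Mrps12: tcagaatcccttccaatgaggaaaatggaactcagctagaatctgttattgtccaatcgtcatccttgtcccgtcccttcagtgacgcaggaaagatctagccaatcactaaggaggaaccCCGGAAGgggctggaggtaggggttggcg
Mrpl34: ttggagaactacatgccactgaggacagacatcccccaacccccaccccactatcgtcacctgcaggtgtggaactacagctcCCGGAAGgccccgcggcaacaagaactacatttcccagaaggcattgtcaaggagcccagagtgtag
Mrps7: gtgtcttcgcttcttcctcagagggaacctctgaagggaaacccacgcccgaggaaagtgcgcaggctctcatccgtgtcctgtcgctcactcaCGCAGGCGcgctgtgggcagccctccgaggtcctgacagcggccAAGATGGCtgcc
Mrpl20: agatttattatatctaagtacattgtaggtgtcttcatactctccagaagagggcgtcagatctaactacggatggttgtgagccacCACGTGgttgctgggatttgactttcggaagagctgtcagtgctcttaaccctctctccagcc
Beside *Myc*, described above, the mRNAs of 3 further factors passed the test on day 1, *Nrf1* and *Gabpa* as lower (-0.18 and -0.16) and *Yy1* as higher (0.33) (edgeR, adjusted p = 0.0285, 0.0416 and 0.00026).

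In GFP+ cells, *Nprl2* KO differed from wild-type in few of these genes. Of the 77, 3 (3.90%) were higher and none lower in the edgeR test, where 2.78% of all 13725 genes tested were higher and 3.66% lower. At an unadjusted p under 0.05, edgeR had 12 higher and 3 lower, and DESeq2 called none in either direction after adjustment. The share of all genes at that unadjusted threshold was not counted. When the edgeR fit also held the replicate number (the replicate block), more of the 77 genes were called, with counts given at the end. The median log2 fold change was 0.096, beside 0.0006 over all genes, and 54 of the 77 values were above 0. *Mrpl38* of the central protuberance had 88.8 and 88.2 TPM in wild-type and 126 and 104 in *Nprl2* KO. *Mrps10*, a small subunit protein, went from 88.6 and 99.3 to 121 and 123 TPM, and *Mrpl22*, which lines the peptide tunnel, from 116 and 115 to 151 and 151. Both KO libraries lay above both wild-type libraries in each of the 3. The log2 fold changes were 0.39 ± 0.099, 0.38 ± 0.099 and 0.36 ± 0.094 (edgeR, adjusted p = 0.0357, 0.0398 and 0.0432). None of the 3 calls held with DESeq2, when only these 2 genotypes were fitted, or without wild-type library 1 or *Nprl2* KO library 1, and 1 gene was called without wild-type library 2 or *Nprl2* KO library 2. The difference between transcript length and effective length, which follows from fragment length, was 227.9 bases in *Nprl2* KO library 1 and between 169.6 and 183.9 in the other GFP+ libraries, and its part in these values was not tested.

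*Tsc2* KO changed more of the transcriptome and few of these genes. Of the 77, 3 (3.90%) were higher and 5 (6.49%) lower than in wild-type, where 14.9% of all genes were higher and 14.2% lower. The median log2 fold change was 0.0016, beside 0.0048 over all genes, and over the alternatives it lay on both sides of 0, from -0.019 to 0.059. The last value is that of limma on log2(TPM + 1), which called 9 higher and 2 lower and had a median of 0.039 over all genes. More of the 77 genes were called with the replicate block, as given at the end. The count of 8 genes became 3 without wild-type library 1 or *Tsc2* KO library 1 and 5 without *Tsc2* KO library 2. Among cytosolic ribosomal proteins the count was 36 of 84 lower (median -0.18), and among nuclear genes of oxidative phosphorylation it was 23 of 78 higher and 1 lower (median 0.16). Mitochondrial translation factors had 2 of 10 lower (median 0.092), assembly factors 1 of 18 higher and 2 lower (median 0.02), and the regulators 1 of 14 higher and 3 lower (median -0.066). *Mycn* led the last of these at -2.38 ± 0.082 (edgeR, adjusted p = 9.39e-09), and *Yy1* was lower in both KOs, at -0.74 ± 0.076 in *Nprl2* KO and -0.89 ± 0.076 in *Tsc2* KO (edgeR, adjusted p = 0.000175 and 7e-06), which share the wild-type libraries.

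*Mrps34* had the largest fall in *Tsc2* KO. Its TPM was 69.4 and 72.6 there, against 97.0 and 92.5 in wild-type and 105 and 92.5 in *Nprl2* KO. Both *Tsc2* KO libraries were below all others, a log2 fold change of -0.47 ± 0.10 against wild-type and -0.51 ± 0.10 against *Nprl2* KO (edgeR, adjusted p = 0.00471 and 0.00188), and both calls held under every alternative tried. The gene lies on the same chromosome as the deleted one, 262 kb beyond the end of *Tsc2* (chr17:24595816-24632676). Apart from *Tsc2* and *Mrps34*, 42 genes that start within 0.5 Mb of the middle of *Tsc2*, a window chosen after the data were seen, were tested, of which 6 were higher and 4 lower in *Tsc2* KO, with a median log2 fold change of 0.056. Of all genes tested, 14.9% were higher and 14.2% lower in this comparison. The stalk protein *Mrpl53* had 85.9 and 76.8 TPM in wild-type and 66.4 and 63.3 in *Tsc2* KO, which did not overlap (-0.39 ± 0.13; edgeR, adjusted p = 0.0381). *Mrps17*, *Mrpl17* and *Mrpl2*, which is close to the peptidyl transferase centre, had log2 fold changes of -0.30, -0.27 and -0.26 (edgeR, adjusted p = 0.0404, 0.0369 and 0.0393). These 4 calls were lost with DESeq2 and without wild-type library 1 or either *Tsc2* KO library (adjusted p up to 0.274).

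Of the 3 genes higher in *Tsc2* KO, 2 lie on chromosome 1. *Mrps14* (chr1:160195215-160201186), a small subunit protein, had 41.9 and 38.5 TPM in wild-type and 61.5 and 54.5 in *Tsc2* KO, and *Mrpl44* (chr1:79776018-79781445), which has an RNase III fold and lies near the peptide exit, went from 63.9 and 64.1 to 88.7 and 88.6. Neither gene's groups overlapped, and the log2 fold changes were 0.49 ± 0.11 and 0.43 ± 0.10 (edgeR, adjusted p = 0.00471 and 0.00705). The median log2 fold change of all 747 genes tested on chromosome 1 was 0.37 in *Tsc2* KO against wild-type and -0.0078 in *Nprl2* KO. In windows of 10 Mb, examined after the data were seen, the medians in *Tsc2* KO ranged from -0.19 to 0.20 before 70 Mb (228 genes) and from 0.21 to 0.67 from there on (519 genes). *Mrps14* and *Mrpl44* lie in the second stretch. *Mrpl15*, *Mrpl30* and *Mrps9*, the other 3 of the family on chromosome 1, lie in the first and had -0.0084, -0.13 and -0.047, none of them called. *Tfb2m*, a mitochondrial transcription factor on the same chromosome, was 0.87 ± 0.12 (edgeR, adjusted p = 0.000299). The part of the chromosome in the values of the 2 genes was not tested. *Mrpl28*, on chromosome 17, was the third, with 122 and 136 TPM in wild-type and 171 and 171 in *Tsc2* KO (0.36 ± 0.087; edgeR, adjusted p = 0.00835). *Mrps14* lost its call without *Tsc2* KO library 1 (adjusted p = 0.0525) and *Mrpl28* without wild-type library 1 (adjusted p = 0.101).

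**Figure D5:**
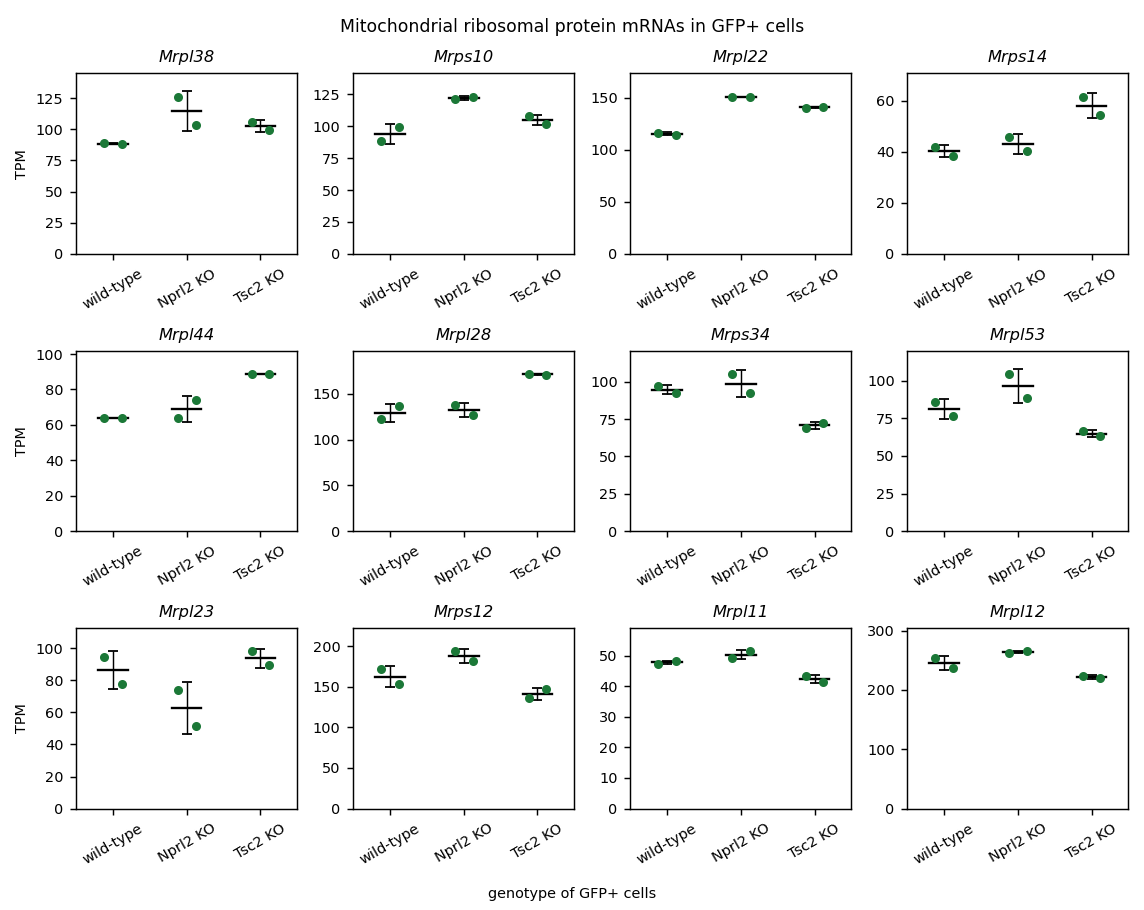
TPM (vertical axis, from 0) of 12 mitochondrial ribosomal protein genes in GFP+ cells of the 3 genotypes (horizontal axis); green points are the 2 libraries of a genotype, and black lines and bars are the mean ± SD. *Mrps14*, *Mrpl44* and *Mrpl28* were highest in *Tsc2* KO, *Mrps34* and *Mrpl53* were lowest there, and *Mrps12*, *Mrpl11* and *Mrpl12* were lower in *Tsc2* KO than in *Nprl2* KO.

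The KOs were also compared directly. In *Tsc2* KO against *Nprl2* KO, 4 of the 77 genes (5.19%) were higher and 10 (13.0%) lower, where 17.5% of all genes were higher and 16.6% lower, with a median log2 fold change of -0.063 beside -0.0067 over all genes. Here too the replicate block called more of the 77 genes, as given at the end. *Mrpl53* differed most among the falls (-0.57 ± 0.13; edgeR, adjusted p = 0.00371), with 104 and 88.8 TPM in *Nprl2* KO. *Mrps12* had 136 and 147 TPM in *Tsc2* KO and 193 and 181 in *Nprl2* KO, with 171 and 154 in wild-type between them (-0.42 ± 0.095; edgeR, adjusted p = 0.00451). *Mrps27*, a small subunit protein with RNA-binding repeats, and *Mrpl34* were lower by 0.36 and 0.35 on the log2 scale (edgeR, adjusted p = 0.0102 and 0.0377). *Mrps14*, *Mrpl28* and *Mrpl44* were higher by 0.36, 0.33 and 0.30 (edgeR, adjusted p = 0.0176, 0.0113 and 0.0339). Of the 5 stalk genes, *Mrpl11*, *Mrpl12* and *Mrpl53* were lower, at between -0.57 and -0.29, and *Mrpl10* and *Mrpl54* were not called (0.11 ± 0.079 and 0.068 ± 0.11). *Mrpl23* was the largest rise (0.60 ± 0.16; edgeR, adjusted p = 0.0104), with 97.9 and 89.5 TPM in *Tsc2* KO, 74.0 and 51.4 in *Nprl2* KO and 94.6 and 77.7 in wild-type. It was low in *Nprl2* KO and near wild-type in *Tsc2* KO, but the 2 *Nprl2* KO libraries were far apart. Without *Tsc2* KO library 1 all 4 higher calls were lost (edgeR, adjusted p between 0.0639 and 0.159), and without *Nprl2* KO library 2 that of *Mrpl23* was lost too (adjusted p = 0.113). *Mrps27* and *Mrpl34* lost their calls without *Tsc2* KO library 2. The count of 14 genes became 8 without *Nprl2* KO library 2, 9 without *Tsc2* KO library 1 and 6 without *Tsc2* KO library 2, and the calls of *Mrpl53*, *Mrps34* and *Mrps12* held under every alternative.

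Across all 7 comparisons, 5 of the 77 genes, *Mrpl3*, *Mrpl27*, *Mrps18c*, *Mrps25* and *Mrps26*, were called in none, and 57 were called in none of the 3 comparisons of GFP+ cells. The same counts were not made over all genes, so they do not tell whether the family differs from other genes. A single log2 fold change, that of *Mrpl14* from day 1 to day 2, exceeded 1 in size.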

How the data were processed

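Total RNA was sequenced; a stranded mRNA kit and paired-end reads are stated for the GFP+ libraries, and the kit of the time course is not given in the sources used here. The authors quantified RefSeq transcripts with kallisto (version 0.42.1, build mm10 per the submitters' processing notes) and deposited estimated counts and TPM per transcript for each library, and a table of TPM per gene; neither is normalized between libraries. Further deposited tables hold the authors' own fold changes and p-values from DESeq2 for each KO against wild-type and were not used. Estimated counts were summed per gene (of 34079 transcripts, 33713 by a RefSeq gene table for GRCm38.p6, 192 through GENCODE M21, 174 unassigned, between 1.65% and 3.57% of the counts) and rounded. For all 77 genes the summed TPM matched the authors' table within 1%. Counts were tested in edgeR 4.0.16 (R 4.3.3; TMM, filterByExpr, robust quasi-likelihood), with the 6 GFP+ libraries in one fit and the 12 time-course libraries in another, and Benjamini-Hochberg adjustment over all genes at 0.05; the SE is the log2 fold change divided by the square root of its F statistic, and the procedure was tested on simulated data. Replicate libraries differed by more than sampling noise (chi-square per gene between 1.82 and 9.06). kallisto divides reads between near-identical sequences, so a gene with processed pseudogenes is uncertain to that extent.

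Genes were named by rule: in each comparison, of the called genes with mean log2 CPM of at least 1 and no overlap between groups, the 5 largest rises and 5 largest falls; the 3 highest and 3 lowest by mean TPM; those with a stated place in the particle; those on a chromosome with a median log2 fold change beyond 0.1; and from the related lists the called genes with the largest changes, some of which are printed. The genes, lists and rules were chosen with earlier results of these data known. Alternatives were DESeq2 1.42.0, upper-quartile normalization, no filter, a minimum of 10 counts per gene in each library, a replicate block, only the 2 groups compared, limma 3.58.1 on log2(TPM + 1), the most abundant transcript, the GFP+ fit without chromosome 1, and leaving out each library. A library left alone in its group was assumed to vary like the other groups. A count of 0 allows up to 3 counts, or 0.196 to 0.348 CPM, for counting error only.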

Additional observations from a re-analysis of the deposited data

Results flagged for a closer look

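In 7 genes the KOs lay on opposite sides of wild-type, with both *Nprl2* KO libraries above and both *Tsc2* KO libraries below both wild-type libraries in CPM, and a direct difference that passed the edgeR test; since the 7 were picked for this, their differences are a description. The log2 fold change of *Tsc2* KO against *Nprl2* KO was -0.57 for *Mrpl53*, -0.42 for *Mrps12*, -0.36 for *Mrps27*, -0.35 for *Mrpl34*, -0.33 for *Mrpl9*, -0.32 for *Mrpl11* and -0.29 for *Mrpl12*. The same pattern was met by 6.36% of all genes tested and by 9.09% of the 77, and the reverse pattern by 7.14% of all genes and by none of the 77. Against wild-type, *Mrpl53* was the only one of the 7 to be called in either KO, as lower in *Tsc2* KO. Both KO effects are measured from the same wild-type libraries, and the groups of 2 and 3 libraries are too small for a test of single outlying libraries.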

How the results depend on the processing

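Of 53 results for single genes named by rule, 31 kept their side of the threshold under all alternatives (26 of 33 in the time course and 5 of 20 in GFP+ cells), and none changed direction. The 53 were named for being called without overlap between groups, so a change of direction was unlikely from the start. DESeq2 ended 12 of the 53 calls, limma on log2(TPM + 1) 5, the fit of only the 2 groups 4, and the most abundant transcript 2. For *Nprl2* KO against wild-type, where 3 genes were called, the count was 0 with DESeq2, 0 with only the 2 groups, 7 with no filter on low counts and 0 to 1 when a library was left out. For *Tsc2* KO against wild-type, with 8 called, it was 4 with DESeq2 and 3 to 7 when a library was left out (3 without wild-type library 1, 3 without *Tsc2* KO library 1, 5 without *Tsc2* KO library 2), and the median was 0.059 with limma. For *Tsc2* KO against *Nprl2* KO, with 14 called, it was 9 with DESeq2 and 6 to 10 when a library was left out, when the median lay between -0.082 and -0.010. For day 3 against day 2, with 15 called, it was 9 with DESeq2 and 5 to 23 when a library was left out.

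The medians moved with the scaling: with limma they were 0.048 for day 1 against day 0, -0.11 for day 2 against day 1, -0.034 for day 3 against day 2 and -0.099 for day 3 against day 0, and with upper-quartile normalization -0.14 for day 2 against day 1 and -0.14 for day 3 against day 0. The medians of all genes moved too, to -0.054, 0.11, 0.029 and 0.063 with limma and 0.10 and 0.028 with upper-quartile normalization, in the same order. The family's median minus that of all genes was 0.10, -0.22, -0.062 and -0.16 with limma. In edgeR this difference was 0.12, -0.24, -0.072 and -0.17, and with upper-quartile normalization -0.24 and -0.17 in the 2 comparisons given. When a library was left out, the median for day 1 against day 0 lay between 0.073 and 0.15. The cause was not tested. With the replicate block the counts of called genes were 10 for *Nprl2* KO against wild-type, 19 for *Tsc2* KO against wild-type and 23 for *Tsc2* KO against *Nprl2* KO, and it ended none of the 53 calls. The labels do not tie libraries of the same number together; correlations of their deviations from the group means were between 0.085 and 0.16 in GFP+ cells, where the deviations of 2 libraries mirror each other, and between -0.11 and 0.13 in the time course.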
